A study of Mus musculus with 4 samples.

Results

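Heat shock chaperones were followed in single macrophages and monocytes of the colon of mice given diesel exhaust particles (DEP) by mouth. The group held 10 genes of 12596 in the table, chosen by name: Hspa1a, Hspa1b, Hspa8, Hsp90aa1, Hsp90ab1, Dnajb1, Dnaja1, Hsph1, Fkbp4 and Hspe1. Fos and Jun, immediate early genes that tissue digestion is known to induce, are given beside them. The genes were picked with earlier results of these data known, so their levels are a description. The cells came from male C57/Bl6N mice without any engineered allele. The 2 DEP mice (mice 14 and 15) received 12 µg of DEP in 200 µL PBS by gavage, 5 days a week over about 6 months, and the 2 PBS mice (mice 2 and 3) received PBS alone. Ages were not given in the sources used here. Cells of the lamina propria, the connective tissue under the gut epithelium, were sorted for CD11b and for Ly6C or CD64, and each mouse filled 1 well of a single batch. Well and mouse therefore cannot be told apart.

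Chaperones help other proteins to fold and keep them from aggregating. Hsp70 proteins hold unfolded stretches in a cycle driven by ATP, which J-domain proteins such as Dnajb1 and Dnaja1 stimulate and exchange factors such as Hsph1 reset. Hsp90 takes over clients such as kinases and steroid receptors with co-chaperones such as Fkbp4, and Hspe1 is the lid of the mitochondrial folding chamber. Hspa8 and Hsp90ab1 are made in most cells at rest, whereas Hspa1a, Hspa1b, Dnajb1 and Hsph1 are induced by heat and other stress through heat shock factor 1. In macrophages taken from tissue these inducible genes and the Fos and Jun family are well known to rise during digestion and sorting.

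Heat shock factor 1 binds inverted units of 3 bases, GAA and TTC, and RefSeq promoters (GRCm38.p6, 250 bases before to 50 after a gene's start) were searched for these letters to show what the genes share. The letters GAANNTTC or TTCNNGAA, each its own reverse complement, occurred in 6 of the 7 members with a promoter in that table. They occurred in 17.0% of all 27025 genes there. Dnajb1 had no match in its window, and Hspa8, Hsp90aa1 and Hsp90ab1 had no entry. A run of 3 units, GAANNTTCNNGAA or TTCNNGAANNTTC, occurred in 2 of the 7, Hsph1 and Hspe1, against 0.662% of all genes. The 2-unit letters lie within the 3-unit ones, so the counts overlap. Jun had a 2-unit match and Fos had none. The stretches follow 5′ to 3′ on the strand of the gene, with the matched letters in capitals.
Hspa1a, chr17:34972233-34972280, minus strand: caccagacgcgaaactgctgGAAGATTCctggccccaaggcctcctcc
Hspa1b, chr17:34959315-34959362, minus strand: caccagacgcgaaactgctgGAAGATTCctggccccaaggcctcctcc
Dnaja1, chr4:40722324-40722371, plus strand: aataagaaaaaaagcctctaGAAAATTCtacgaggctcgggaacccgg
Fkbp4, chr6:128438780-128438827, minus strand: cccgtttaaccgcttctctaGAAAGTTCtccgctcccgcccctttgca
Hspe1, chr1:55088039-55088096, plus strand: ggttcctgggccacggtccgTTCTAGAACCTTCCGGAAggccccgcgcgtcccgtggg
Hsph1, chr5:149636280-149636308, minus strand: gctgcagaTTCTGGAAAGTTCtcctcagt
Jun, chr4:95052323-95052370, minus strand: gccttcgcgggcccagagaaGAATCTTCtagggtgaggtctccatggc
The Hsph1 stretch lies after the gene's start, and Hsph1 also had a 2-unit match before it. The Hspe1 stretch holds the longest run of units among these genes. A match in letters is a description and not evidence of binding.

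Hspa1a and Hspa1b are neighbours on chromosome 17 (34969190 to 34972156 and 34956436 to 34959238, minus strand, GRCm38), and their promoters were identical in 296 of 300 bases. Of all 50-base runs in the Hspa1a transcript, 58.8% also occur in that of Hspa1b. In the last 500 bases, where this assay reads, 0% do. Their UMIs (unique molecular identifiers, which count RNA molecules) can therefore be set side by side. Hspa1a overlaps Gm20481 and Dnaja1 overlaps Smu1 and Gm6297 on the opposite strand, and so does Hspe1 with Hspd1.

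Of 943 cells, 302 held a UMI of 3 or more markers of another cell class and were left out, most of them (288) for markers of B or plasma cells. That list held 7 immunoglobulin genes, whose UMIs occurred in between 55.2% and 88.7% of the retained cells of a mouse. Without these 7 genes, 905 of the 943 cells would be retained. Free RNA may enter this count, which was not tested. Left-out cells held a median of 5246 UMIs, against 3262 in retained cells. The filter removed 40.7% and 41.6% of the cells of DEP mice 14 and 15 and 17.5% and 23.2% of those of PBS mice 2 and 3. The direction of several members changes when all cells are used, as given beside the fits. The 641 retained cells held 440856 to 776260 UMIs per mouse, with medians of 2636 to 4127 UMIs per cell. One barcode occurred in 2 libraries.

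Retained cells with 2 or more Plac8 UMIs are called Plac8-high (42, 58, 29 and 28 cells in mice 14, 15, 2 and 3). Cells with 0.5% or more of their UMIs in C1qa, C1qb and C1qc are called C1q-high (81, 136, 145 and 141 cells). Among all 943 cells, 764 met this C1q limit, against 503 among the retained cells. The classes shared 35 cells, and 16 cells were in neither. The 8 monocyte markers summed to between 6686 and 10653 CPM (UMIs of a gene scaled to 1000000 UMIs in all) per mouse in Plac8-high cells and between 443 and 1514 CPM in C1q-high cells. The 9 macrophage markers summed to between 11201 and 23818 CPM and between 56030 and 64364 CPM. These lists hold Plac8, C1qa, C1qb and C1qc, which define the classes, so part of both contrasts was set in advance. Plac8 alone held 4887, 4601, 2751 and 3834 CPM in Plac8-high cells of mice 14, 15, 2 and 3. The 10 markers of NK or innate lymphoid cells summed to 96 UMIs in the retained cells, with 62 of Gata3, 32 of Il7r and 0 of Ncr1. The 12 epithelial markers summed to 25 UMIs, with 0 of Epcam. The 8 dendritic cell markers summed to 81.0, 246, 23.2 and 160 CPM in Plac8-high cells of mice 14, 15, 2 and 3. Near the thresholds, the chaperones summed to 7670 CPM in 40 cells with 1 Plac8 UMI and 8140 CPM in 14 cells with 2. They summed to 10242 CPM in 5 cells just under the C1q threshold and 5678 CPM in 6 cells just above it.

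The chaperones were highest in 1 DEP mouse and lowest in the other. Summed over the 10 genes and all retained cells, they reached 7349 CPM in DEP mouse 14, 12751 CPM in DEP mouse 15, 7949 CPM in PBS mouse 2 and 8202 CPM in PBS mouse 3. Mouse 15 stood 1.73 times above mouse 14 with both PBS mice between them, so the groups overlapped. The same order held among the DEP mice and against the PBS mice in each cell class. Plac8-high cells held 7324, 13091, 8113 and 8017 CPM in mice 14, 15, 2 and 3. C1q-high cells held 7106, 12144, 7836 and 8133 CPM.

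The group means over all retained cells were 10050 ± 3819 CPM upon DEP and 8075 ± 179 CPM upon PBS (SD, n = 2 each). The log2 ratio of these means was 0.32, less than the pooled SD between mice of 0.40 on the log2 scale. Without mouse 15 the sign turned, to -0.14 over all cells, -0.14 in Plac8-high cells and -0.17 in C1q-high cells. Without mouse 14 the ratios were 0.66, 0.70 and 0.60. The contrast of the groups in the summed level thus rested on mouse 15. With 2 mice a group a permutation of a single value over mice cannot go below p = 0.333, and none was run.

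The depth of mouse 15 lay within the range of the other mice, with a median of 2870 UMIs per cell against 3598, 2636 and 4127 in mice 14, 2 and 3. Its median mitochondrial share was the lowest, at 1.45% against 1.84%, 1.78% and 2.06% in mice 14, 2 and 3. Its share of immunoglobulin UMIs among all 943 cells was the highest, at 2.67% against 1.98%, 0.135% and 0.782%. The part of these in the chaperone levels was not tested. Over all 943 cells the chaperones reached 6746, 11684, 7600 and 8503 CPM in mice 14, 15, 2 and 3. With every retained cell thinned to 1000 UMIs they reached 7304, 12426, 8230 and 8669 CPM. The order of the mice was the same in both.

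**Figure D1:**
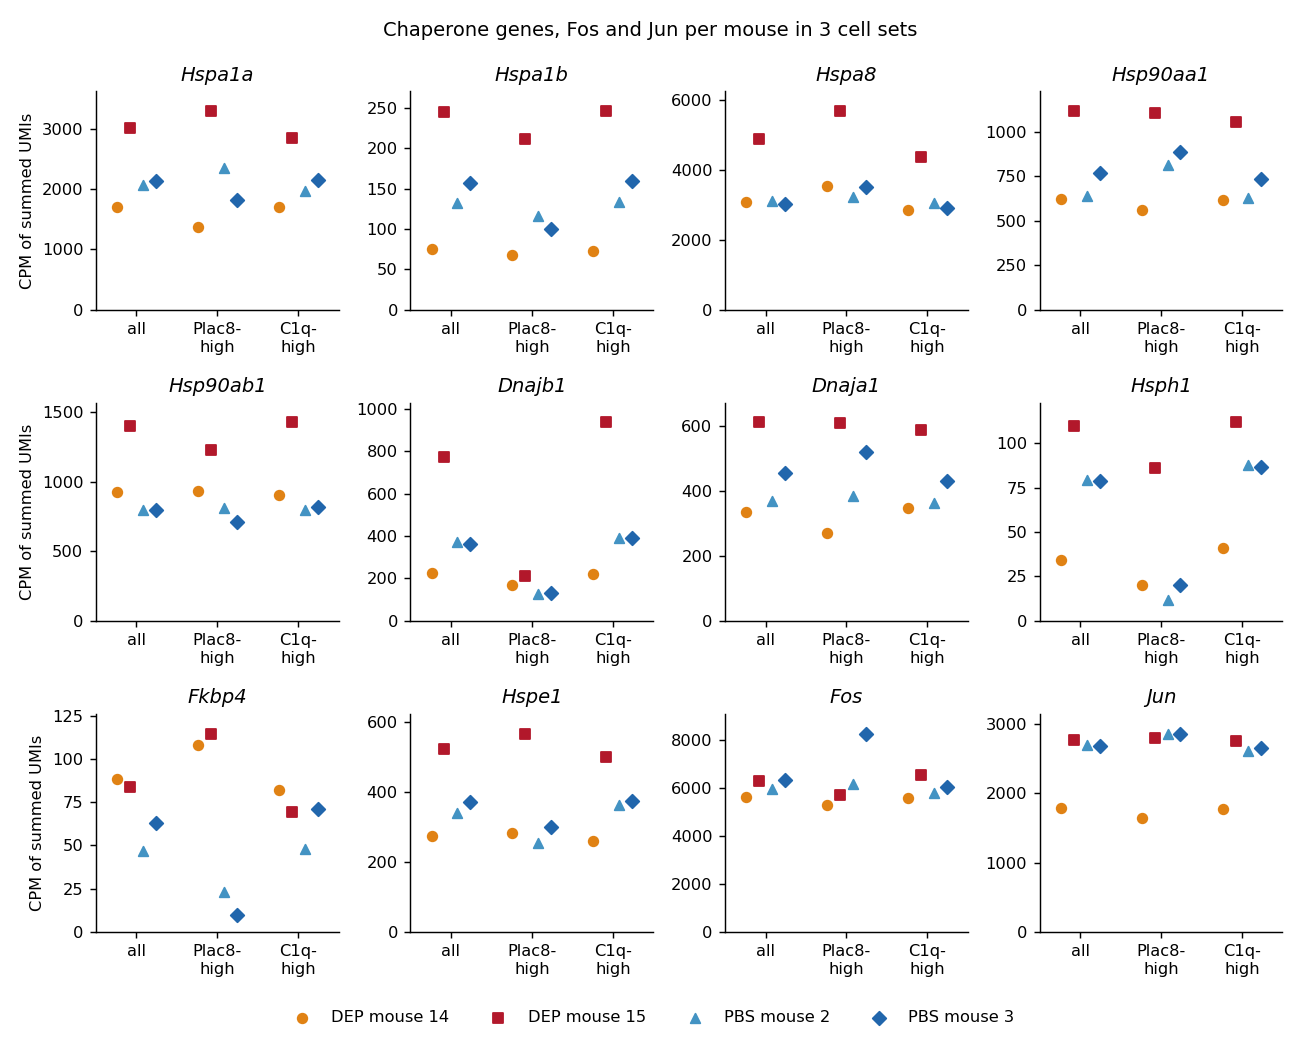
Level of each chaperone gene, Fos and Jun in CPM of UMIs summed per mouse (vertical axis, from 0) in all retained, Plac8-high and C1q-high cells, 1 point per mouse. DEP mouse 15 was the highest point for 9 of 10 chaperones over all cells, and DEP mouse 14 the lowest for 7.

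Among the Hsp70 genes, Hspa1a, the main inducible form, stood at 1708 CPM in DEP mouse 14, 3017 CPM in DEP mouse 15, 2061 CPM in PBS mouse 2 and 2132 CPM in PBS mouse 3. Its close copy Hspa1b held 74.9, 245, 133 and 157 CPM in the same order. In both genes the DEP mice enclosed the PBS mice. The constitutive Hspa8 held 3064, 4870, 3113 and 3016 CPM, so that 3 mice lay close together and mouse 15 above them. Hsph1, an Hsp110 exchange factor, held 34.0, 110, 79.2 and 78.6 CPM from 15, 67, 46 and 61 UMIs.

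The J-domain protein Dnajb1, a partner of inducible Hsp70, varied most between mice over all retained cells. It held 225 and 774 CPM in DEP mice 14 and 15, from 99 and 473 UMIs, and 372 and 363 CPM in PBS mice 2 and 3. Mouse 15 stood 3.44 times above mouse 14, with the PBS mice nearly equal between them. Dnaja1, a J-domain protein made at rest, held 336, 610, 369 and 455 CPM in mice 14, 15, 2 and 3. In Plac8-high cells the ratio of the highest to the lowest mouse was 1.66 for Dnajb1, the smallest among the members. It was 11.5 for Fkbp4 there.

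Of the Hsp90 genes, the inducible Hsp90aa1 held 622, 1117, 641 and 768 CPM in mice 14, 15, 2 and 3. The constitutive Hsp90ab1 held 923 and 1403 CPM upon DEP exposure against 794 and 797 CPM upon PBS. It was, with Fkbp4, a gene whose groups did not overlap over all cells. The DEP pair lay above the PBS pair in 22.6% of all genes tested there. Fkbp4, a peptidyl-prolyl isomerase that binds Hsp90 in steroid receptor complexes, held 88.5 and 83.4 CPM upon DEP exposure against 46.5 and 63.1 CPM upon PBS. It was also the member highest in mouse 14. Hspe1 of the mitochondria held 274, 522, 341 and 372 CPM.

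Mouse 15 was the highest of the 4 mice in 9 of the 10 members over all cells, where 26.5% of the 5080 genes tested had it highest. It was highest in 10 of 10 in Plac8-high cells (22% of 4859 genes) and in 9 of 10 in C1q-high cells (24.7% of 5172 genes). Mouse 14 was lowest in 7, 4 and 8 members, against 23.9%, 22.4% and 25.6% of genes. The pair of DEP mice exceeded the pair of PBS mice in 2 members over all cells (22.6% of genes), in 5 in Plac8-high cells (18.2%) and in 1 in C1q-high cells (18.4%). The 5 were Hspa8, Hsp90ab1, Dnajb1, Hsph1 and Fkbp4, and the 1 was Hsp90ab1. The reverse was found in 0 members of each cell set, against 16.4%, 17.4% and 17.4% of genes.

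edgeR's quasi-likelihood test on the summed UMIs, with p-values adjusted over all genes tested, called 0 of the 10 members in each of the 3 cell sets at an adjusted p under 0.05. It called 0.157% of all genes tested over all cells, 0% in Plac8-high cells and 0.0193% in C1q-high cells. All 10 members passed the filter on low values in each set. Unadjusted p was under 0.05 for 2, 3 and 1 of the 10, where 7.76%, 5.49% and 6.05% of all genes tested had such a p, and DESeq2 called 0 members. Over all cells 9 of the 10 members had a log2 fold change above 0, with a median of 0.21 beside -0.01 over all genes. The medians were 0.51 beside 0.03 in Plac8-high cells and 0.24 beside 0.00 in C1q-high cells. With all 943 cells, 7 of the 10 members lay above 0 over all cells, 5 in Plac8-high cells and 6 in C1q-high cells. Genes of 1 mouse share its cells and are no replicates of DEP.

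For Hsp90ab1 the log2 fold change was 0.50 over all cells (standard error 0.18, edgeR adjusted p = 0.426) and 0.52 in C1q-high cells (0.18, adjusted p = 0.558). Hspa8 had 0.33 over all cells (0.17, adjusted p = 0.692) and Dnajb1 0.42 (0.36, adjusted p = 0.815). Hspa1a had 0.13 (0.20, adjusted p = 0.906), with a standard error larger than the change. With all 943 cells Hspa1a turned to -0.05 and Hspa1b from 0.14 to -0.06. In Plac8-high cells, Hspa1a then turned from 0.18 to -0.18, Hspa1b from 0.43 to -0.20, Dnajb1 from 0.59 to -0.13 and Hsph1 from 1.74 to -0.07. Hsp90aa1 there went from 0.00 to -0.11 and Dnaja1 from -0.01 to 0.08. In C1q-high cells Hspa1a, Hspa1b and Hspe1 turned from 0.13, 0.15 and 0.04 to -0.04, -0.04 and -0.01. The direction of Hsp90ab1, Hspa8 and Fkbp4 was the same with and without the left-out cells in each set. Fos had -0.09 and Jun -0.28 over all cells (adjusted p = 0.885 and 0.743).

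The fits without 1 DEP mouse show what each carried. Without mouse 14 all 10 members had a log2 fold change above 0 in each cell set, and without mouse 15 only 2 did over all cells, 6 in Plac8-high cells and 2 in C1q-high cells. Hsp90ab1 and Fkbp4 were the 2 over all cells. The share of all genes above 0 in these fits is not given here. In them the remaining DEP mouse is assumed to vary like the PBS mice, so the text gives the members' log2 fold changes alone. Dnajb1 in C1q-high cells went both ways, with 1.25 without mouse 14 and -0.86 without mouse 15. Without mouse 14, Hsp90ab1 was at 0.82 and Hspa8 at 0.54 in C1q-high cells, and Dnajb1 at 1.03 over all cells.

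**Figure D2:**
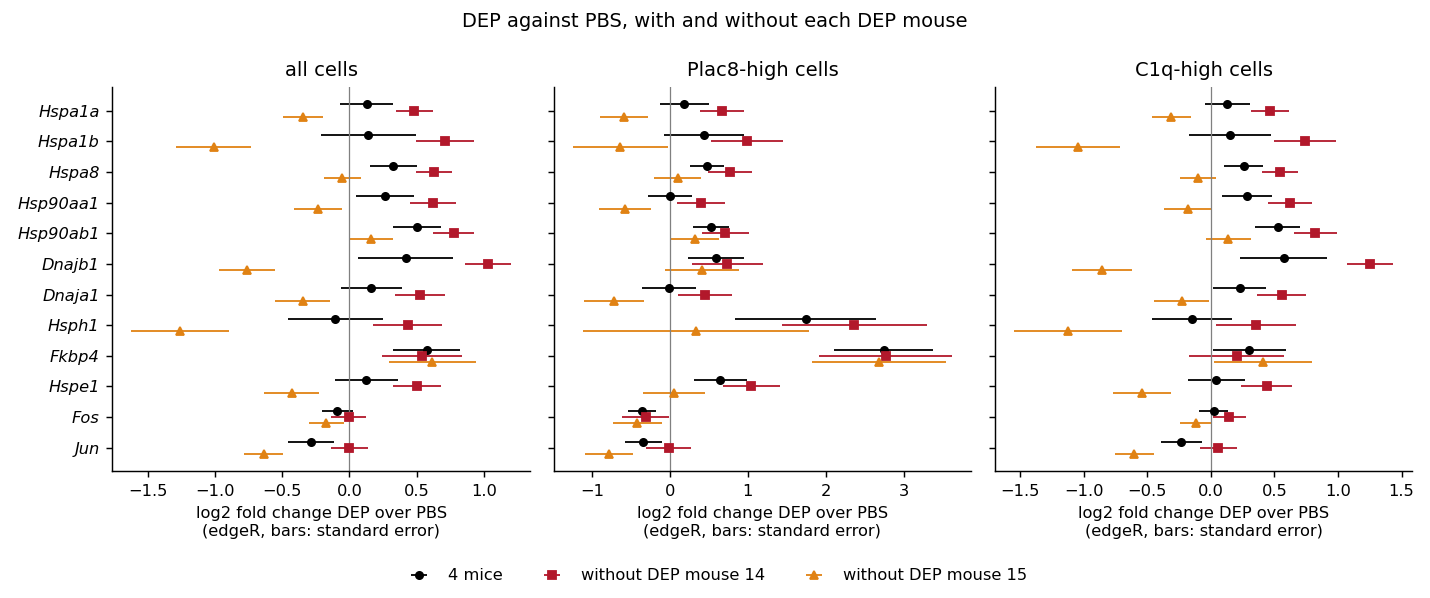
Log2 fold change of DEP over PBS (horizontal axis, edgeR, bars are standard errors) for the 10 chaperones, Fos and Jun in 3 cell sets, with 4 mice and without either DEP mouse. Where a DEP mouse is left out, the bars assume that the remaining one varies like the PBS mice. Without mouse 14 all 10 chaperones lie above 0, and without mouse 15 only 2 do over all cells.

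Fkbp4 had the largest log2 fold change among the members in Plac8-high cells. It was counted in 16 and 20 UMIs of DEP mice 14 and 15 and in 2 and 1 UMIs of PBS mice 2 and 3, in 13, 18, 2 and 1 cells. Pooled per group, its CPM upon DEP was 6.93 times that upon PBS (95% exact counting interval 2.19 to 35.2, which leaves out the spread between mice). edgeR gave a log2 fold change of 2.74 (standard error 0.63, unadjusted p = 0.000768, adjusted p = 0.709). It was 2.77 without mouse 14, 2.68 without mouse 15 and 1.66 with all 943 cells, and it was called with edgeR's likelihood ratio test (adjusted p = 0.0446) and without a filter on low values (adjusted p = 0.0414). In C1q-high cells Fkbp4 held 81.7 and 69.3 CPM upon DEP and 47.6 and 70.7 CPM upon PBS, with overlapping groups. Hsph1 in Plac8-high cells rested on 3 and 15 UMIs upon DEP and 1 and 2 upon PBS, a pooled ratio of 3.46 (1.01 to 18.4).

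Whether the DEP effect differed between the cell classes was tested with an interaction term and the mouse as a block, in cells of 1 class alone. edgeR called 0 of the 10 members, against 0.311% of 5140 genes. Fkbp4, Hsph1 and Hspe1 had the differences farthest from 0 among the members. The difference in log2 fold change was 2.25 for Fkbp4 (standard error 0.83, edgeR adjusted p = 0.460), 3.12 for Hsph1 (1.15, adjusted p = 0.460) and 0.98 for Hspe1 (0.38, adjusted p = 0.575), each larger in Plac8-high cells. For Hsph1 the PBS mice held 0 and 1 UMIs in those cells. With all 943 cells the differences were 1.39 for Fkbp4 and 1.32 for Hsph1. For Fos it was -0.46 (0.19, adjusted p = 0.656).

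Within a mouse the summed chaperone level differed little between the 2 cell classes. The log2 ratio of Plac8-high over C1q-high CPM was 0.04, 0.11, 0.05 and -0.02 in mice 14, 15, 2 and 3. With the 35 cells of both classes left out, Plac8-high cells held more in all 4 mice, with 8233, 14026, 9486 and 8493 CPM against 7363, 12410, 7956 and 8197 CPM and a mean log2 ratio of 0.16. Dnajb1 was lower in the Plac8-high cells of every mouse, with log2 ratios of -0.39, -2.14, -1.62 and -1.59. Its level there was 169, 212, 128 and 130 CPM, against 222, 937, 392 and 392 CPM in C1q-high cells. Mouse 15 held the most Dnajb1 in both classes, further above the PBS mice in C1q-high cells. Mouse 14 had the smallest difference between the classes, and after thinning its log2 ratio was 0.05.

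Hsph1 was lower in Plac8-high cells of all 4 mice too, with ratios of CPM of 0.496 (95% exact counting interval 0.0914 to 1.78), 0.769 (0.401 to 1.39), 0.133 (0.00329 to 0.777) and 0.230 (0.0272 to 0.867) in mice 14, 15, 2 and 3. Those of the DEP mice included 1 in their intervals. Hspa1b was lower in all 4 mice, by log2 ratios of -0.11, -0.21, -0.20 and -0.67, but in only 2 of 4 once cells of both classes were left out. Hspa8 was higher in Plac8-high cells of all 4 mice, by 0.31, 0.38, 0.08 and 0.27, but in 3 of 4 with all 943 cells or with thinned cells. In the background, 9.61% of 4340 genes were lower and 24.4% higher in Plac8-high cells of all 4 mice. Hspa1a, the other inducible Hsp70 gene, was lower in 2 mice and higher in 2. The classes were chosen on measured UMIs, so these ratios were not tested.

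**Figure D3:**
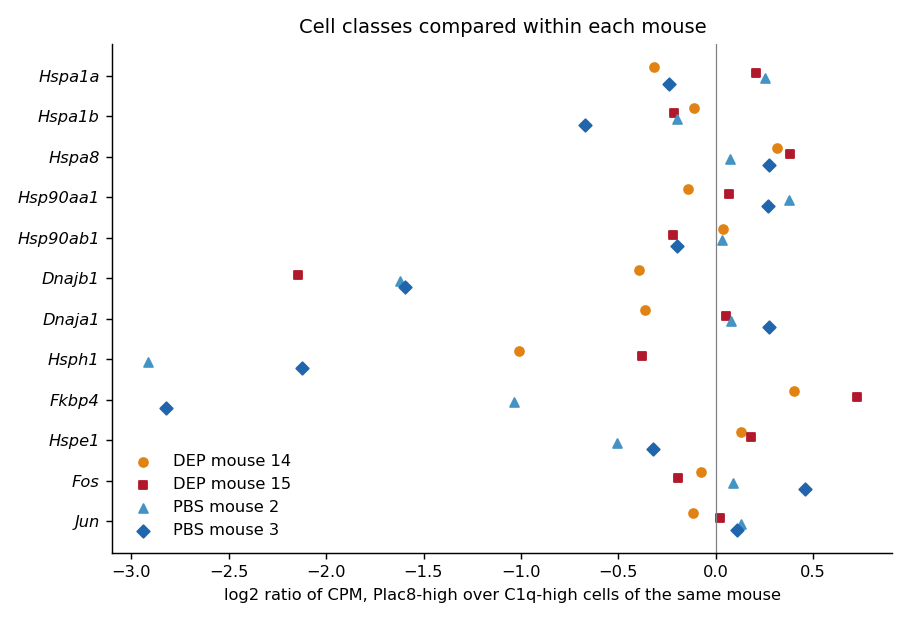
Log2 ratio of CPM between Plac8-high and C1q-high cells of the same mouse (horizontal axis), 1 point per mouse, for the 10 chaperones, Fos and Jun. Dnajb1 and Hsph1 lie left of 0 in all 4 mice, and Hspa8 right of 0.

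Over cells, the chaperones took a median of 0.581% of a cell's UMIs in mouse 14, 0.964% in mouse 15, 0.709% in mouse 2 and 0.654% in mouse 3. No retained cell was without a chaperone UMI. In mouse 15 the low end was raised as well as the high end: the 10th percentile was 0.425% against 0.329%, 0.331% and 0.293% in mice 14, 2 and 3, and the 90th 2.34% against 1.41%, 1.45% and 1.64%. Cells with 1% or more made up 48.7% of mouse 15 and 16.1%, 26.1% and 24.9% of mice 14, 2 and 3. The 10% of cells with the most chaperone UMIs held between 29.0% and 30.9% of them in each mouse. The higher level of mouse 15 thus did not rest on a few cells.

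**Figure D4:**
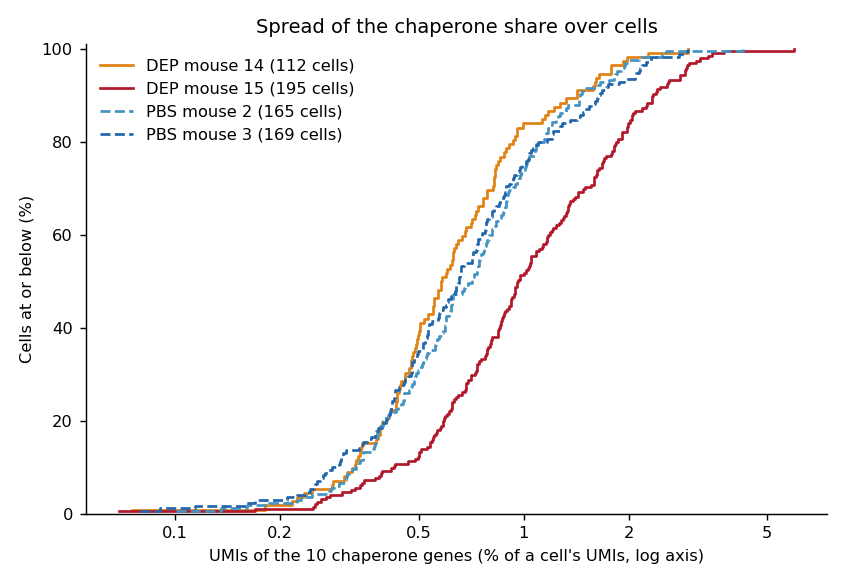
Cumulative percent of retained cells (vertical axis) by the percent of their UMIs in the 10 chaperones (horizontal log axis), 1 line per mouse. The line of DEP mouse 15 lies right of the others over most of its range, with a median of 0.964% against 0.581% to 0.709%.

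The share of cells with a UMI of a gene and the number of UMIs in such a cell were taken apart. After thinning to 1000 UMIs per cell, a Hspa1a UMI was found in 51.8% of cells of mouse 14 (95% exact binomial interval 42.1% to 61.3%), 67.7% of mouse 15 (60.6% to 74.2%), 66.7% of mouse 2 (58.9% to 73.8%) and 67.5% of mouse 3 (59.8% to 74.5%). By this share of Hspa1a mouse 14 lay lowest and mouse 15 level with the PBS mice. Over the 10 members the thinned share was highest in mouse 15 in 9 and lowest in mouse 14 in 6. Per thinned cell that held one, mouse 15 had 4.46 Hspa1a UMIs, against 3.24, 3.28 and 3.52 in mice 14, 2 and 3. For Dnajb1 the shares were 14.3%, 31.8%, 26.7% and 23.1%, with 1.25, 2.45, 1.57 and 1.44 UMIs per such cell. Unthinned, the shares were 71.4%, 86.2%, 85.5% and 83.4% for Hspa1a and 36.6%, 47.7%, 45.5% and 48.5% for Dnajb1. Intervals cover counting error only, and since every cell type makes these genes, no type that lacks them was at hand for the background of free RNA.

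A 3′ assay gives 1 tag per transcript whatever its length, so the members' shares of the chaperone UMIs can be set side by side. Hspa8 took 41.7%, 38.2%, 39.2% and 36.8% in mice 14, 15, 2 and 3, and Hspa1a 23.2%, 23.7%, 25.9% and 26.0%. Hsp90ab1 followed with 9.72% to 12.6% and Hsp90aa1 with 8.06% to 9.36%. Over all retained cells the mix was thus similar in the 4 mice. Dnajb1 took 3.06% in mouse 14 and 6.07% in mouse 15, with 4.68% and 4.43% in the PBS mice between them. In Plac8-high cells the mix varied more. Hspa1a took 18.7%, 25.2%, 29.0% and 22.8% there in mice 14, 15, 2 and 3, and Hspa8 48.4%, 43.3%, 39.6% and 43.8%.

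Over all retained cells, Fos and Jun of mouse 15 lay close to those of the PBS mice, unlike most of its chaperones. Jun held 1790 CPM in mouse 14, 2769 CPM in mouse 15, 2693 CPM in mouse 2 and 2683 CPM in mouse 3. Mouse 14 was thus low in Jun as in the chaperones, while mouse 15 was close to the PBS mice. Fos held 5628, 6277, 5934 and 6312 CPM, a range of 1.12 times. In C1q-high cells both genes were highest in mouse 15 and lowest in mouse 14, as most chaperones were. Fos there held 5580, 6546, 5787 and 6021 CPM in mice 14, 15, 2 and 3. Jun there held 1779, 2751, 2613 and 2656 CPM. In Plac8-high cells both genes were lower in both DEP mice, as were 17.4% of all genes tested. Fos was at 5299 and 5718 against 6163 and 8267 CPM there. Jun was at 1640 and 2796 against 2855 and 2865 CPM, with mouse 15 close to the PBS mice. edgeR called neither in these cells (adjusted p = 0.913 for Fos and 0.929 for Jun). Without mouse 15, Jun in C1q-high cells had a log2 fold change of -0.60.

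Of 20 dissociation-linked immediate early genes, Fos and Jun among them, all 20 were tested over all cells. edgeR called 0 higher and 0 lower (0.157% of all genes were called), with 7 at an unadjusted p under 0.05 (7.76% of all genes). Their median log2 fold change was -0.26 beside -0.01 over all genes, and the DEP pair lay under the PBS pair in 7 (16.4% of all genes) and over it in 0 (22.6%). Mouse 15 was the highest of the mice in 6 of the 20, near the 26.5% of all genes, and mouse 14 the lowest in 16 (23.9% of all genes). In Plac8-high and C1q-high cells mouse 15 was highest in 2 and 8 of the 20 (22% and 24.7% of all genes). Mouse 14 was lowest there in 16 and 14 (22.4% and 25.6%). Fosb had the smallest value, with 547 and 404 CPM upon DEP and 699 and 822 CPM upon PBS (log2 fold change -0.74, edgeR adjusted p = 0.150). Ier2 had the largest, 0.10, with overlapping groups.

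Across the cells of a mouse the chaperones varied together only in part. Correlations of log2(UMIs per 10000 + 1) were averaged over the 4 mice (112 to 195 cells each), and the cells of a mouse share a library and differ in depth. Over the 45 pairs of members the median r was 0.17, and 35 pairs had r above 0 in all 4 mice. Apart from Fos and Jun, no pairs of other genes were taken as a background for these values. The closest were Hspa1a with Dnajb1 (0.41, from 0.35 to 0.47 per mouse), Hspa1a with Hspa1b (0.39) and Hspa1a with Hsp90aa1 (0.35). Hsph1 with Fkbp4 was the lowest, at 0.01, with few UMIs of each.

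Jun had an r of 0.35 with Hspa1a (from 0.26 to 0.46), like that of Hsp90aa1 with Hspa1a and above the median of the member pairs. Fos had 0.22 with Hspa1a. Fos with Jun was at 0.46. The summed chaperones had a mean r of 0.30 with Jun and 0.16 with Fos, where mouse 14 alone had r below 0 with Fos (-0.06). They had -0.13 with the mitochondrial share and 0.10 with log2 depth. Among 3148 other genes with a UMI in 10% or more of the cells, the most alike were Ubb (0.35), Hmox1 (0.32), Jun (0.30) and Bag3 (0.22). Ubb encodes ubiquitin, Bag3 an exchange factor of Hsp70 in aggregate clearance, and Hmox1 heme oxygenase. Hmox1 held 125, 374, 134 and 109 CPM in mice 14, 15, 2 and 3 and so also stood highest in mouse 15, whereas Ubb lay between 5002 and 5627 CPM in all 4 mice.

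**Figure D5:**
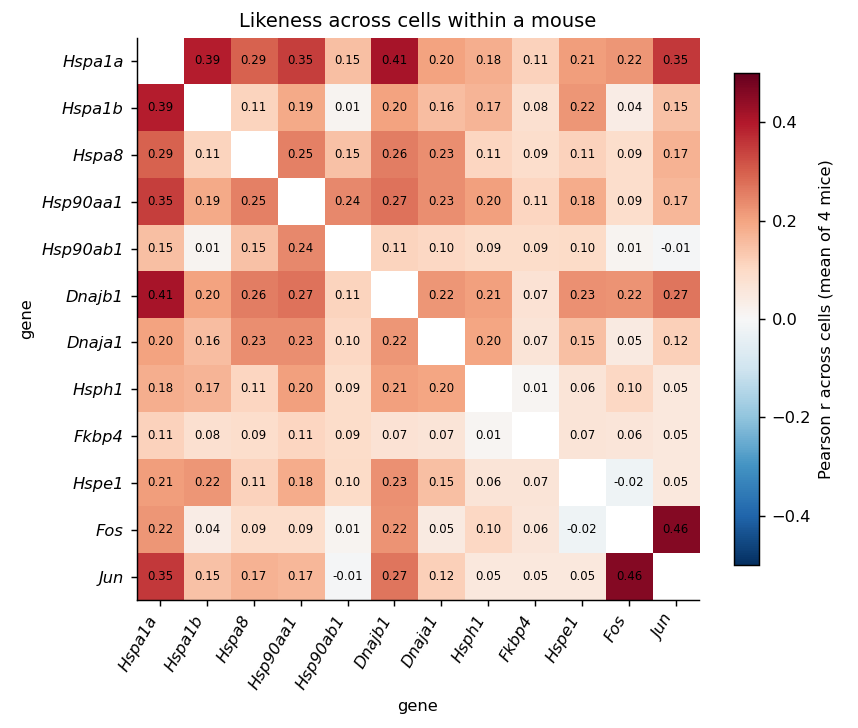
Pearson r across cells for each pair of the 10 chaperones, Fos and Jun, averaged over the 4 mice (colour scale from -0.5 to 0.5). Fos with Jun has the highest value, 0.46, followed by Hspa1a with Dnajb1, 0.41, and with Hspa1b, 0.39.

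Other chaperone and proteostasis genes were followed in 10 lists. edgeR called 0 of their 66 genes tested over all cells (0.157% of all genes), with 9 at an unadjusted p under 0.05 (7.76% of all genes). Mouse 15 was highest in 39 of the 66, which is 59.1%, beside 26.5% of all genes. In C1q-high cells it was highest in 41 of 66, 62.1% beside 24.7% of all genes. In Plac8-high cells it was highest in 15 of 65, 23.1% beside 22% of all genes. In Plac8-high cells the share of the wider lists thus lay near the background.

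Among 13 Hsp90 co-chaperones 10 were tested over all cells, and the DEP pair lay over the PBS pair in 7 of them (22.6% of all genes) and under it in 2 (16.4%). In Plac8-high and C1q-high cells it lay over in 4 of 10 each (18.2% and 18.4% of all genes). It lay under in 1 and 2 (17.4% of all genes in each class). The median log2 fold change over all cells was 0.41. Stip1, which passes clients from Hsp70 to Hsp90, had the largest value, with 77.1 and 113 CPM upon DEP and 58.5 and 49.0 CPM upon PBS (0.81, standard error 0.26, edgeR adjusted p = 0.396). Fkbp8, an isomerase anchored in the mitochondrial membrane, had the smallest, -0.37.

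Of 18 genes of endoplasmic reticulum chaperones and the unfolded protein response, all 18 were tested over all cells. The DEP pair lay over the PBS pair in 10 (22.6% of all genes) and under it in 2 (16.4%), mouse 15 was highest in 14 (26.5%), and the median was 0.22. In Plac8-high cells mouse 15 was highest in 3 of these 18 (22% of all genes), and in C1q-high cells in 15 (24.7%). Dnajc3, an inhibitor of a kinase that slows translation, had the largest value, with 70.3 and 106 CPM upon DEP and 48.2 and 49.0 CPM upon PBS (0.84, standard error 0.27, edgeR adjusted p = 0.396). Ddit3, a transcription factor of the late stress response, had the smallest, -0.50. Neither was called.

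Of 14 other J-domain proteins 11 were tested over all cells, with a median of 0.22. Mouse 15 was highest in 6 (26.5% of all genes). Dnajc13 was at 0.39 and Dnajc5 at -0.61. Of 8 Hsp70 exchange factors and cofactors 6 were tested (median 0.21), with Bag5 at 0.54 and Sil1 at -0.94. Of the 8 genes of the TRiC chaperonin, which folds actin and tubulin, 7 were tested (median 0.22), with Cct3 at 0.37 and Cct2 at -0.19. None of these passed edgeR's test.

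Of 6 Hsp70 and Hsp110 relatives 3 were tested (median 0.02), with Hspa14 at 0.41 and Hspa4 at -0.06. Of 7 mitochondrial chaperones 5 were tested (median 0.05). Hspd1, the folding chamber for which Hspe1 is the lid, was at 0.45, with 113 and 146 CPM upon DEP and 112 and 76.0 CPM upon PBS, and Clpp was at -0.24. The 4 genes of ubiquitin and aggregate handling were all tested (median -0.17), from Ubb at -0.09 to Vcp at -0.32. Mouse 14 was lowest in all 4 (23.9% of all genes). Single genes were tested of the 5 small heat shock proteins (Hspb11, -0.00) and of the 4 heat shock factors and partners (Hsbp1, 0.02).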

How the data were processed

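The authors sorted cells in 1 batch, sequenced them with a 10x Genomics 3′ kit, aligned the reads to mm10 with Cell Ranger and STAR (2.6.1a per the submitters' processing notes) using Ensembl annotation, and merged the mice without downsampling. They kept cells by depth, genes and mitochondrial share and deposited 1 table of raw UMI counts, not normalized, with the mouse in each cell's name. Genes that overlap on opposite strands are counted apart by this stranded assay.

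Here the UMI counts of a mouse were added up over its retained, Plac8-high or C1q-high cells. Genes that exceeded 1 CPM in 2 or more libraries and had a UMI in 5% or more of the cells were tested with edgeR 4.0.16 (R 4.3.3, TMM, quasi-likelihood test, Benjamini-Hochberg adjustment over all genes, 0.05), with only the 4 libraries of a cell set in its fit. CPM in the text is without TMM factors. The standard error given with edgeR is the absolute log2 fold change divided by the square root of the test's F statistic. Alternatives were DESeq2 1.42.0, other normalizations, the likelihood ratio test, other filters, all cells, thinned cells and each mouse left out. The test was also tried on simulated counts, with an outcome that is not given here. Cells, shares and correlations were handled in Python 3.11.15 (pandas 2.3.3, scipy 1.17.1). The members, gene lists and cell classes were chosen with earlier results of these data known. Named genes were the members, Fos, Jun, the markers, in each list the largest and smallest log2 fold change over all cells where none was called, and the 5 genes most alike across cells, of which 1 is not reported here. Positions are those of GENCODE for GRCm38, and promoter sequences are RefSeq's. No doublet caller was run here, and doublets were not removed here. The paper reports that its own search with simulated doublets found no suspicious cells. For its analysis the paper also left out cells that a reference did not annotate as monocytes or macrophages.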

Additional observations from a re-analysis of the deposited data

How the results depend on the processing

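Depth limits the Plac8-high cells most, with 86154 to 174544 UMIs per mouse, where low members rest on 1 to 20 UMIs. With 2 mice a group the spread within DEP outweighs most differences. No paired analysis was possible because the groups share no replicate number.

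The summed chaperone ratio of DEP over PBS kept its direction with all 943 cells, thinned cells, other class limits and without immunoglobulin markers, the last chosen after seeing the data. Leaving out 1 mouse it ranged from -0.14 to 0.66 over all cells, from -0.14 to 0.70 in Plac8-high cells and from -0.17 to 0.60 in C1q-high cells, turning only without DEP mouse 15. The log2 ratio of Plac8-high over C1q-high cells (mean 0.05) was -0.0029 with all 943 cells and 0.16 with cells of both classes left out. It ranged from 0.02 to 0.07 leaving out 1 mouse. The median difference between DEP and PBS in the share of cells with a member's UMI turned from -1.14 to 1.74 percentage points on thinning.
Over all cells 8 genes were called, none a member. The count was 3 with DESeq2's size factors in edgeR, 2 with DESeq2, 29 with the likelihood ratio test, 70 without a gene filter, 1 each with all 943 cells, thinned cells and no immunoglobulin markers, and 9 to 41 leaving out 1 mouse. In Plac8-high cells 0 were called, against 5 with the likelihood ratio test, 17 without a gene filter, 2 with all 943 cells, 22 without cells of both classes and 11 to 16 leaving out 1 mouse. In C1q-high cells 1 was called, against 7 with library sizes only, 0 with DESeq2, 11 with the likelihood ratio test, 36 without a gene filter, 0 without immunoglobulin markers, 0 without cells of both classes, 7 at a C1q limit of 1% and 18 to 43 leaving out 1 mouse. The interaction called 16 genes, against 3 with all 943 cells and 0 with cells of both classes counted as Plac8-high. The causes were not tested. Among members, Fkbp4 in Plac8-high cells was called by the likelihood ratio test (adjusted p = 0.0446) and without a gene filter (adjusted p = 0.0414). Over the other alternatives there edgeR's adjusted p ranged from 0.0882 to 0.942, and DESeq2 did not call it. The other calls of members arose on leaving out a DEP mouse, where the text above gives the log2 fold changes alone.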
